A study of Mus musculus with 18 samples.

Results

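Mouse CD4 T cells lacking Id3 (knockout, KO) were compared with wild-type (WT) cells under the label Teff at 72 h, 3 samples a side. The comparison was 1 of 6 contrasts in the authors' deposited table. It was picked by its contrast name and held 65983 of the 395898 rows, 1 row for each genomic region, all of which were used. The contrast that pooled Teff with Tcmp samples was not counted as part of it. The contrast names use codes in place of the labels Teff and Tcmp, and the codes were read here as these labels.

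The series measured accessible chromatin by ATAC-seq, in which a transposase inserts sequencing adapters where DNA is open, in 18 samples that form 6 groups of 3. All cells began as naive CD4 T cells, were activated with beads carrying antibodies to CD3 and CD28, and grew in a Th1-polarising medium with IL-2, IL-12 and an antibody to IL-4. The groups used here were KO Teff, WT Teff, KO Tcmp and WT Tcmp, each at 72 h. The labels do not spell out Teff and Tcmp. The sources used here give neither the Id3 allele nor the strain, age and number of mice. They do not state either that replicates came from different animals or cultures, so the spread between samples may be technical. How far the p-values rest on that spread is not known, since the test behind them is not named.

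Id3 is one of the Id proteins, helix-loop-helix factors that lack a DNA-binding domain. Id proteins pair with E proteins such as those encoded by Tcf3 and Tcf12 and keep them off their E-box motifs in enhancers. In T cells the balance of Id and E proteins is known to influence thymic development and the choice between effector and memory fates.

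The table described windows of 300 bp placed every 50 bp and joined into regions, 409588 windows in all. In 64503 of the 65983 regions (97.8%) the width was 300 bp plus 50 bp for each further window, so that neighbouring windows shared most of their bases and reads. In the Teff contrast the p-value of a region's best window did not fall at any step down the table, and the best window stood first in 65983 of 65983 regions. The up and down counts followed this order too. In 9906 regions all windows were counted as up or down, in 56077 no window was, and in 0 regions only some were. Of the 9335 counted regions with at least 2 windows, 6702 (71.8%) held windows of both directions, although such windows would lie side by side in the genome. The statistics were therefore read as one list of windows in order of p-value, with the running number of a window as its rank. No value was assigned to the interval or gene of its row. For the same reason the targeted gene Id3 and the markers of effector cells could not serve to check the genotype or the label Teff.

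A region thus stands for a block of windows of consecutive rank. Its first window is listed with a log2 fold change (KO over WT), and its further windows enter through the counts of directions. Every fold change below is the authors' deposited value or a summary of such values, with no value per sample behind it. Depth is unknown from the table.

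Most of the chromatin windows that passed the threshold in Teff cells were more accessible without Id3. Of 409588 windows, 57355 (14.0%) passed an adjusted p of 0.05, by Benjamini-Hochberg adjustment of the authors' p-values over all windows. Directions were counted for all windows from rank 1 to rank 51091. This is 89.1% of those that passed. There, 40249 windows were higher and 10842 lower in KO, or 78.8% higher. The 8254 listed windows of this stretch gave 79.15% higher (95% Wilson interval 78.3 to 80.0), so the listed windows stood for the blocks within their counting error. Over all listed windows, 11.0% were higher and past the threshold, and 3.13% were lower and past it. A change in the makeup of the cells and a change within each cell cannot be told apart in such samples.

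**Figure D1:**
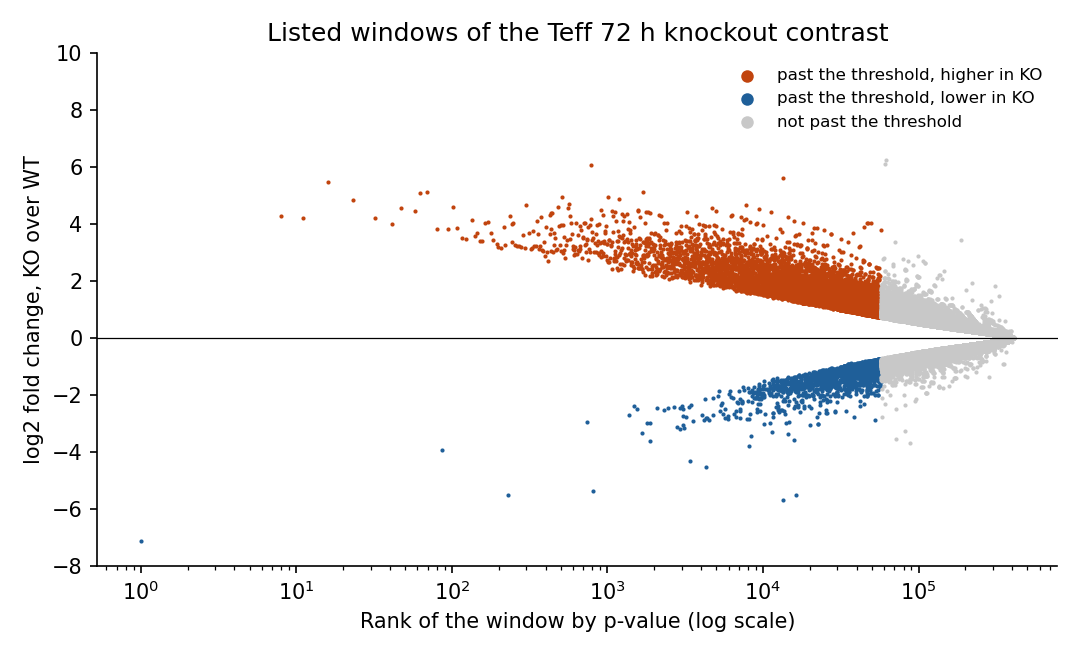
Each point is a listed window of the Teff contrast, with its rank by p-value on a log axis and its log2 fold change (KO over WT). Windows past an adjusted p of 0.05 are coloured by direction. The window of rank 1 lies lowest, at -7.12, while nearly all other windows of low rank lie above 0.

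The strongest single statistic was a loss, in a list that was otherwise led by gains. In the authors' deposited table the window of rank 1 had a log2 fold change of -7.12, or 139.3-fold lower in KO. Its block of 7 windows held 5 lower and 2 higher. The next 11 listed windows, of ranks 8 to 80, were all higher in the authors' deposited table, with values from 3.83 (rank 80) to 5.47 (rank 16). At rank 86 stood another loss, at -3.95 in the authors' deposited table, and that of rank 94 was higher, at 3.83. Since neighbouring windows overlap, the windows of one block may come from few places in the genome. Their positions are not known from the table.

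The share of lower windows was not even along the ranks. In the blocks that began within the first 100 ranks, 12 windows were lower in KO and 89 higher (11.9% lower). The share was 3.89% (35 of 900) between ranks 100 and 1000 and 5.38% (215 of 4000) between ranks 1000 and 5000. It was 8.66% between ranks 5000 and 10000, 17.2% between ranks 10000 and 20000 and 26.8% between ranks 20000 and 50000. The excess of gains was thus largest between ranks 100 and 1000, where 865 of 900 were higher. The first 100 ranks hold too few blocks, 14 in number, to set their share apart from its neighbours.

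Among windows that did not pass the threshold, gains and losses were more nearly balanced. Of the 56685 listed windows that did not pass, 52.9% were higher in KO (95% Wilson interval 52.5 to 53.3), with a median log2 fold change of 0.03 (quartiles -0.22 and 0.30). In bins of 5% of the ranks, the share of higher windows fell from 88.1% (86.9 to 89.1) in the first bin to 75.7% in the second and 66.5% in the third. It was 64.0% in the fourth, just beyond the threshold, and 51.9% in the eighth. In the 17 bins wholly beyond the threshold it ranged from 48.3% to 64.0%. The last bin had 50.2% (48.5 to 51.9).

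**Figure D2:**
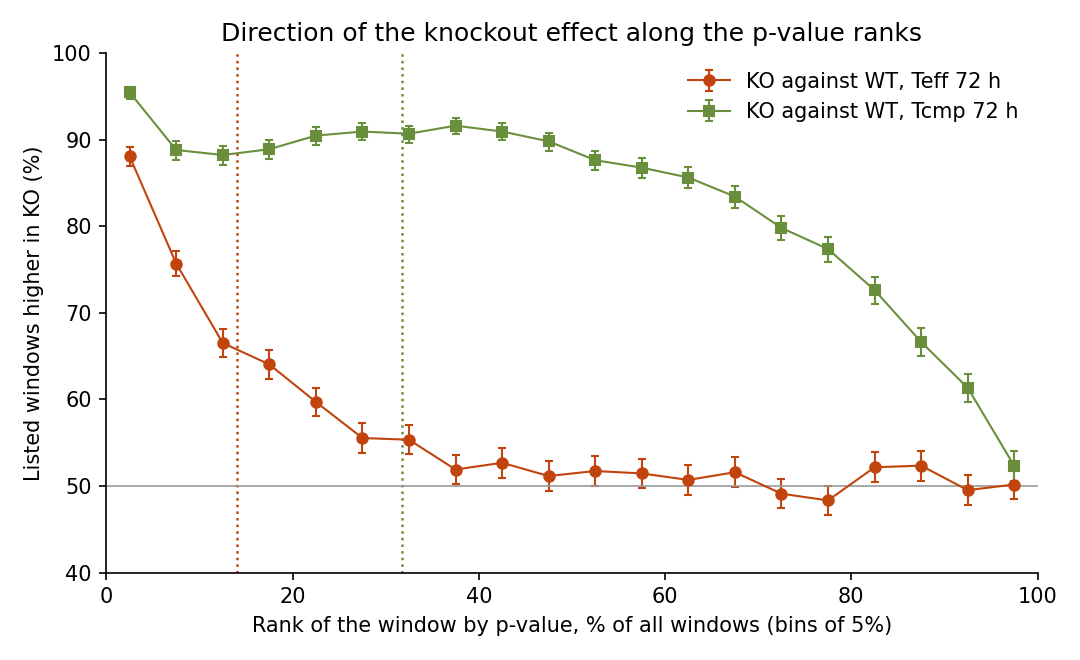
The share of listed windows higher in KO is plotted for each 5% of the p-value ranks, in Teff cells (circles) and Tcmp cells (squares), with 95% Wilson intervals for counting error alone. Dotted lines mark the share of windows past an adjusted p of 0.05, at 14.0% in Teff and 31.8% in Tcmp cells. The Teff share falls from 88.1% to about even by the eighth bin, while the Tcmp share is above 85% up to the thirteenth.

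In Tcmp cells the excess of gains ran much further down the ranks. There 31.8% of windows passed the threshold, and of the 44862 listed windows that did not, 79.5% (79.1 to 79.8) were still higher in KO. The share was 95.5% in the first bin of 5%, 89.8% in the tenth, 77.4% in the sixteenth and 52.3% in the last. The median over all listed windows was 0.07 in Teff and 0.51 in Tcmp cells. The windows lower in KO and past the threshold were about as many in Teff (2067 listed, 3.13%) as in Tcmp cells (2017 listed, 3.06%), and the gap lay in the higher ones, 7231 (11.0%) against 19104 (29.0%). That split depended on the offset of the median. With each contrast's median subtracted, Teff cells had 6499 higher and 2465 lower windows, and Tcmp cells 6741 and 5166. Whether the offset came from scaling between libraries was not tested.

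The p-values of the Teff contrast also showed how much of the list was near a flat distribution. The 2516 regions of a single window show the window p over its whole range. By these, 38.5% of windows in Teff cells had a p above 0.5, where a flat distribution would have as many above as below, and 77.2% had a p above 0.05. In Tcmp cells the same shares were 16.6% and 54.9%. At the middle of the ranks the window p was 0.351 in Teff and 0.0704 in Tcmp cells.

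At equal rank, gains and losses in Teff cells were close in size. Ranking by p-value brings this about wherever the errors of both directions are alike. Between ranks 1000 and 5000 the median log2 fold change was 2.74 for higher windows (quartiles 2.42 and 3.19) and -2.73 for lower ones (-2.99 and -2.46). Between ranks 10000 and 20000 the medians were 1.78 and -1.72, and between ranks 20000 and 50000 they were 1.31 and -1.21. Over all listed windows past the threshold, higher windows had a median of 2.91-fold and lower windows of 2.37-fold. The larger overall median of the gains thus went with their larger share of the low ranks. In the first 1000 ranks the medians of the bins lay further apart, and few listed windows were lower there, 2 of 14 up to rank 100 and 3 of 144 from there to rank 1000.

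The error implied by a fold change and its p-value was taken as the absolute log2 fold change divided by the normal quantile of the window p. Windows of equal rank have about the same p, so by direction it restates the fold sizes. Between ranks 5000 and 10000 its median was 0.369 for higher and 0.375 for lower windows, and between ranks 20000 and 50000 it was 0.366 and 0.344. Among the few lower windows of low rank it was larger, 0.415 against 0.376 in the first 100 ranks and 0.542 against 0.363 between ranks 100 and 1000.

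The upper tail of the Teff fold changes was heavier than the lower one up to 16-fold. At least 2-fold higher were 7487 listed windows and at least 2-fold lower 2151. At 4-fold the counts were 2035 and 194, at 8-fold 498 and 26, and at 16-fold 82 and 7. Gains outnumbered losses 3.48 to 1 at 2-fold, 10.5 to 1 at 4-fold and 19.2 to 1 at 8-fold. With the median subtracted these ratios were 2.74, 8.06 and 14.0. At 32-fold the counts were 8 and 5, so that the most extreme values were spread over both directions. The 1st percentile of the log2 fold change was -1.50 and the 99th 2.80.

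**Figure D3:**
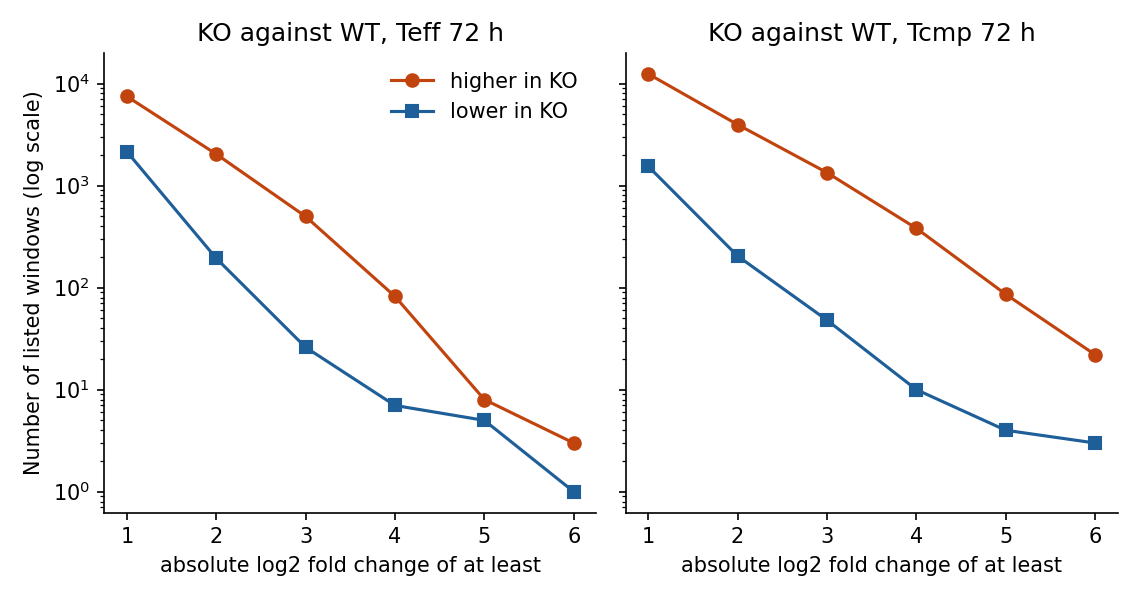
The number of listed windows at or beyond each absolute log2 fold change is shown on a log axis, higher in KO (circles) and lower in KO (squares), for Teff and Tcmp cells. In Teff cells the curves lie furthest apart at a log2 value of 3, with 498 against 26 windows, and come close at 5, with 8 against 5.

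Large fold changes were not always well measured. Of the 10 highest listed values in Teff cells 8 passed the threshold. The 2 that did not were the 2 highest, at 6.26 (rank 61916) and 6.10 (rank 61197) in the authors' deposited table, with implied errors of 2.43 and 2.35. The highest value that passed was 6.06 (rank 785) in the authors' deposited table, with an implied error of 0.683. Of the 10 lowest values 9 passed. After the window of rank 1, the lowest in the authors' deposited table were -5.71 (rank 13389, implied error 1.14) and -5.52 (rank 228, implied error 0.542).

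Single windows could be followed between Teff and Tcmp cells without their positions. A window's value in the pooled contrast equals the mean of its Teff and Tcmp values, and the table prints enough digits for this to mark a window. The Teff and Tcmp contrasts share no samples, while the pooled contrast uses the samples of both. Whether Teff and Tcmp samples came from the same cultures was not known here, so the 2 contrasts may not be independent. The search gave 1802 windows. Searches for a deliberately wrong target gave 2 to 8, so a few of the 1802 may be false. In 511 of them the p-values were visible in all 3 contrasts, and in 510 of these the error of the pooled value was within 10% of that computed from the other contrasts.

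Few of the windows with the strongest Teff statistics could be followed, 3 of the 14 listed up to rank 100 and 4 of the 144 from there to rank 1000. These 7 had the same direction in Tcmp cells. The window of rank 1, at -7.12 in Teff, had rank 8 in Tcmp cells and a value of -6.36 in the authors' deposited table. That of rank 11, at 4.20 in Teff, was at 4.86 with rank 11 in Tcmp cells in the authors' deposited table. That of rank 86 was at -3.95 in Teff and -3.87 in Tcmp cells in the authors' deposited table. The other matched windows of the first 1000 Teff ranks were 4 higher ones, which had a median of 3.48 in Teff and 3.92 in Tcmp cells.

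Gains in Teff cells also passed in Tcmp cells at a higher rate than losses, by counts whose difference was not tested. The backgrounds of these rates were unlike. Over all listed windows of the Tcmp contrast, 29.0% were higher and past the threshold, and 3.06% were lower and past it. The rates alone therefore do not rank gains above losses in how far they were shared. Of all 1802 matched windows, 1517 were higher and 285 lower in Tcmp cells, and 30.6% passed the threshold there. Of the 199 matched windows that were higher and past it in Teff, 199 were higher in Tcmp cells too and 186 (93.5%) also passed there. Their medians were 1.58 in Teff and 1.93 in Tcmp cells. Of the 58 that were lower and past the threshold in Teff, 52 were lower in Tcmp cells and 39 (67.2%) passed there, 37 of them as lower. Their medians were -1.32 and -1.03. Over all 1802 matched windows the median was 0.06 in Teff and 0.50 in Tcmp cells, and the part of this offset in the counts was not tested.

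The share that also passed in Tcmp cells was smaller at later Teff ranks, in both directions. Between ranks 10000 and 20000 all 37 higher and all 7 lower matched windows passed in Tcmp cells in the same direction. Between ranks 20000 and 50000 it was 89 of 100 higher and 17 of 28 lower ones. Between ranks 100000 and 200000, where no window passed in Teff, 222 of 229 higher windows were also higher in Tcmp cells. Of the 180 lower ones there 64 were also lower, against 285 lower in Tcmp cells among all 1802.

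Fewer matched windows passed in Teff cells than in Tcmp cells, 257 against 551. This gap too depended on the offset of the medians: over all listed windows it was 9298 against 21121 as deposited and 8964 against 11907 with the medians subtracted. In the 511 windows with visible p-values the implied error had a median of 0.346 in Teff and 0.334 in Tcmp cells, and the ratio of the errors had a median of 1.03 (quartiles 0.990 and 1.06). The Teff error was the larger one in 367 of the 511 (71.8%). The threshold was passed in both by 225 windows, in Teff but not in Tcmp by 32 (13 higher and 19 lower), and in Tcmp but not in Teff by 311 higher and 15 lower windows. Of the 311, 274 were higher in Teff too.

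**Figure D4:**
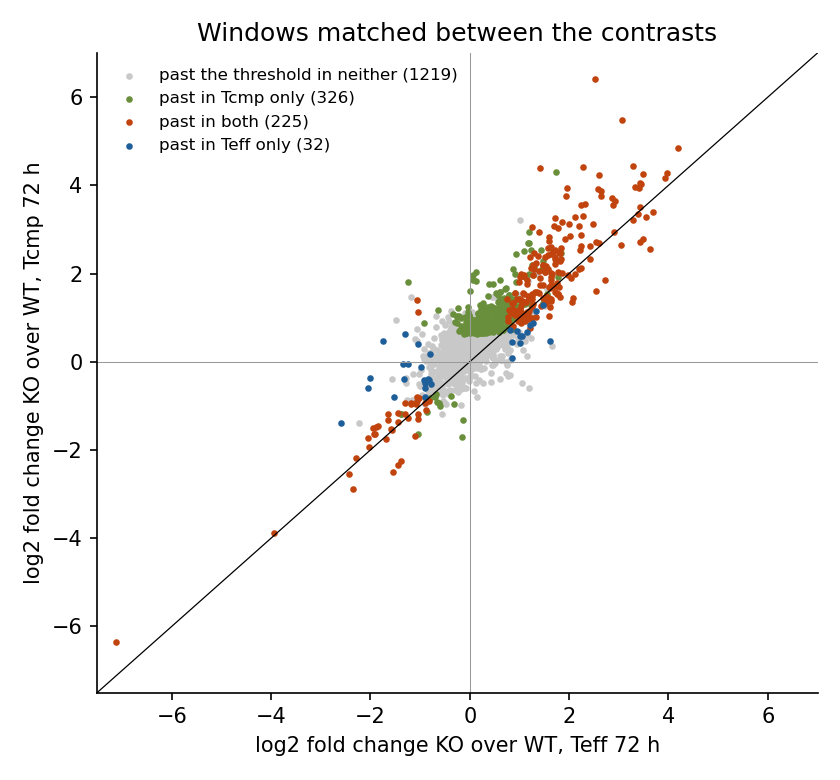
Each point is 1 of 1802 matched windows, with its log2 fold change (KO over WT) in Teff cells on the horizontal and in Tcmp cells on the vertical axis, coloured by where it passed an adjusted p of 0.05. The diagonal marks equal values. Most points lie above it, with 1512 windows (83.9%) lower in Teff than in Tcmp cells. The median difference of -0.41 was 0.03 once each contrast's median was subtracted.

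Few windows showed a knockout effect that differed between Teff and Tcmp cells by a test of the difference. The difference of each matched window was divided by its implied error and adjusted over the 1802 windows. That error treats the Teff and Tcmp samples as independent, and a pairing between them was not taken into account. Only 511 of these had visible p-values in all 3 contrasts, the pooled one included. The error of a difference uses the Teff and Tcmp p-values alone. Where either was not visible, the implied error rests on an interpolated p. The difference passed an adjusted p of 0.05 in 3 windows (0.166%). It passed an unadjusted p of 0.05 in 171 of the 1802, more than flat p-values would give. In all 3 the Teff value was the lower one, and the Teff and Tcmp p-values were visible. The searches for wrong targets gave as many matches as this, and none of the 3 windows was found in all contrasts at 72 h. The squared error of the pooled value was 1.04, 0.929 and 0.992 times that computed from the Teff and Tcmp errors. Over the 511 windows with visible p-values its 5th and 95th percentiles were 0.998 and 1.007, and for the windows with ratios of 0.929 and 0.992 the pooled p was interpolated. The ratio of 1.04, that of the first window, lay above this range. The first was at 2.52 in Teff (rank 6268) and 6.40 in Tcmp cells in the authors' deposited table, with a difference of -3.89 and an implied error of 0.697 (Benjamini-Hochberg adjusted p = 4.52e-05). The other windows were at -1.04 and -1.06 in Teff (ranks 44216 and 53646) and at 1.14 and 1.40 in Tcmp cells in the authors' deposited table. With each contrast's median subtracted, 1 window (0.0555%), the first of these, passed the adjusted threshold. The unadjusted one was passed by 53 of the 1802, fewer than flat p-values would give. Whether the implied errors were too large for this test was not tested. The median difference, Teff minus Tcmp, was -0.41 (quartiles -0.65 and -0.14), and with the medians subtracted 0.03 (quartiles -0.21 and 0.30). A single window's difference had a median implied error of 0.457. Differences of the size of the median as deposited could therefore not be shown for a single window.

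In 66 of the matched windows the Teff against Tcmp values of both genotypes were found as well, since the Teff effect minus the Tcmp effect must equal the KO value minus the WT value. Wrong targets gave 0 to 2. The relation shows that the contrasts are built from the same 4 groups, but would hold as well with the names of both genotypes or of both cell labels exchanged. With the codes of the contrast names read as Teff and Tcmp, it puts the 4 groups on one log2 scale, here relative to WT Tcmp.

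Of these 66 windows, 9 were higher and past the threshold in Teff cells. That KO Teff lay above WT Teff was the criterion of this choice, and KO Teff lay below KO Tcmp in 65 of all 66 windows, these 9 included. Over all listed windows the median log2 fold change of Teff over Tcmp was -0.87 in KO and -0.44 in WT cells. The levels given here keep these offsets. KO Teff ranged from 0.31 to 2.98 with a median of 1.25, WT Teff from -1.14 to 0.54 with a median of -0.50, and KO Tcmp from 1.34 to 3.86 with a median of 1.58. The window of rank 19499, for instance, was at 0.34 in WT Teff, 3.86 in KO Tcmp and 2.98 in KO Teff cells. That of rank 30058 was at -1.14 in WT Teff, 1.46 in KO Tcmp and 0.68 in KO Teff cells.

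Another 2 of the 66 windows were lower and past the threshold in Teff cells, which puts KO Teff below WT Teff by choice. In both KO Teff was the lowest of the 4 groups, as it was in 27 of all 66 and in 25 of the 55 not past the threshold. That of rank 44864 was at -0.96 in WT Teff, -0.58 in KO Tcmp and -3.00 in KO Teff cells. That of rank 52389 was at -0.30 in WT Teff, 0.64 in KO Tcmp and -1.61 in KO Teff cells. Neither passed the knockout threshold in Tcmp cells, and both passed in the contrast of KO Teff with KO Tcmp, as did 63.8% of all windows. WT Teff was below WT Tcmp in 54 of the 66 windows. The order of the groups was not judged with the offsets between Teff and Tcmp cells removed.

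**Figure D5:**
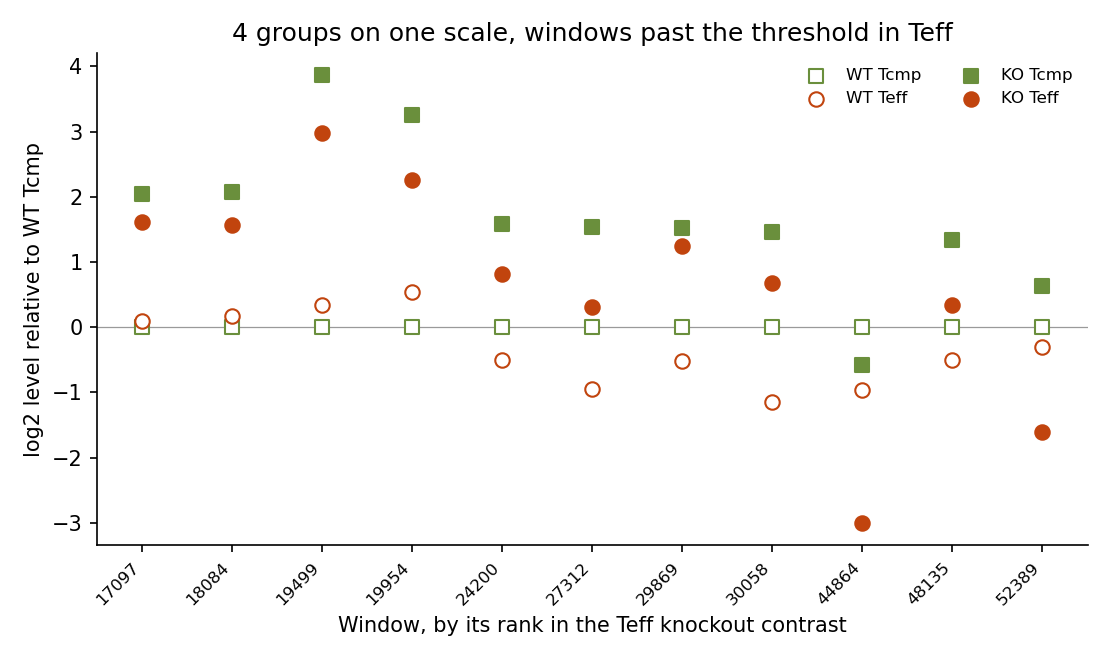
The 11 windows past the threshold in Teff cells whose values were found in all contrasts at 72 h are placed by their Teff rank, with the log2 level of each group relative to WT Tcmp (open squares, at 0). WT Teff is shown by open circles, KO Tcmp by filled squares and KO Teff by filled circles. KO Teff lies above WT Teff in 9 windows and below it in 2, the directions by which they were chosen, and below KO Tcmp in all 11. The levels keep the offset between the groups, a median of -0.87 for KO Teff over KO Tcmp among all listed windows.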

How the data were processed

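The file analysed was the authors' deposited table of comparisons, with no value for a single sample. The submitters' processing notes list edgeR, BWA, Picard and Trim Galore without versions or roles, and GRCm39 as build. Per the file headers it gives the count of windows in each region and the windows counted up or down, a p-value and adjusted p-value, the running number of the representative window (no unit), and a log2 fold change whose base was taken as 2. The sources used here do not give the scaling of libraries. The members and lists were chosen with earlier results of these data known.

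Dividing the region p by the count of its windows gave the p of its best window. Where the region p was 1, it was interpolated from neighbouring ranks. The threshold was the largest rank that met the Benjamini-Hochberg criterion at 0.05. Wilson intervals (95%) cover counting error only, and overlapping windows make them too narrow. Bins were fixed by rank. Windows were matched between contrasts within 2e-14. The implied error assumes a normal reference. The test of the difference between Teff and Tcmp effects was added with the data in view. No gene was named for its values, by the rule set for a table in p-value order. Rank counts, directions and matching were tested on simulated data. Python 3.11.15, numpy 2.4.6, pandas 2.3.3, scipy 1.17.1 and numba 0.67.0 were used.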

Additional observations from a re-analysis of the deposited data

How the results depend on the processing

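The Teff contrast had 9298 listed windows past the threshold, 77.8% of them higher in KO. An adjusted p of 0.01 left 6378, with 82.2% higher. With the median subtracted 8964 passed by a normal reference (72.5% higher) and 9059 by a t reference with 12 degrees of freedom (73.9% higher). Each reference served both to infer the error and to compute the new p-value. These counts therefore do not test the choice of reference. A minimum of 2-fold left 7911. The share was 77.6% over counted windows, 78.0% without single-window regions and 78.35% in regions of 6 or more windows. Bins of equal numbers of listed windows, tried for the first, the tenth and the last of 20, and matching tolerances of 5e-15 (1733 windows) and 5e-14 (1806) kept their values within counting error or 1.5 times. The windows whose effect differed between Teff and Tcmp cells went from 3 to 1 with the medians subtracted, a setting added after the data had been seen. No paired analysis was possible because values of single samples were not used here. Leaving out a replicate, another normalization and a filter on low values were not run for the same reason, and depth was not judged.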

Other observations

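The reference distribution behind the deposited p-values was examined in the matched windows. If contrasts are built from independent groups, the squared error of the pooled value times 4 equals the sum of the squared errors of the Teff and Tcmp values. With a normal reference the ratio of both sides had a median of 1.00 in 511 matched windows (5th to 95th percentile 0.998 to 1.007). With a t reference of 12 degrees of freedom, as many as 18 samples in 6 groups leave, the median was 0.617, and with 40 degrees of freedom it was 0.889. The sources used here do not name the test, and the counts past the threshold rest on its p-values.

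Of the matched windows past the threshold in Teff cells, 6 had the opposite sign in Tcmp cells, and all 6 were lower in Teff. Among all 1802 matched windows 1221 had the same sign in both, and 1517 were higher in Tcmp cells, with a median of 0.50. The Teff values of the 6 ran from -1.75 to -0.79 and their Tcmp values from 0.18 to 1.40. One of them, of Teff rank 52389, is among the windows placed in all contrasts at 72 h.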
